A study of Homo sapiens with 7 samples.

Results

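The RNA of 3 dasatinib resistant (DasR) lines from the early stage of dose escalation was compared with that of 2 control lines, with 1 library sequenced from each line. K562, a long established line from chronic myeloid leukemia, grows on the BCR::ABL1 fusion kinase. Dasatinib is an inhibitor of BCR::ABL1 and of the SRC family kinases. The early stage group held the lines adapted to and kept in 10, 15 and 25 nM dasatinib, and the control group held the drug naive K562 line and the line kept in the DMSO vehicle. Lines adapted to 50 and 200 nM formed a late stage group, so that 5 of 7 libraries belong to the comparison and all 7 entered the estimate of the spread.

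The resistant lines are derivatives of K562 and were taken one after another as the dose was raised, so they are not independent derivations, and their grouping was chosen by the study from the clustering of these same libraries. No line was sequenced more than once, the spread within a group therefore holds dose, passage and technical differences together, and the p-values measure only the spread between these libraries. Total counts were 21007761 for drug naive, 24037893 for DMSO, 27808639 for 10 nM, 27844799 for 15 nM and 20059656 for 25 nM. Lines of the same group differed beyond counting error, the chi-square value per degree of freedom being 36.7 between the controls and 70.1, 39.2 and 21.1 between pairs of early stage lines. As the libraries are of bulk RNA, fewer cells that express a gene and less RNA per cell cannot be told apart.

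Cells that lack amino acids, or whose endoplasmic reticulum (ER) fills with unfolded protein, slow their protein synthesis and raise the transcription factors ATF4, XBP1 and ATF6. ATF4 turns on genes for amino acid uptake and synthesis and for the charging of transfer RNA (tRNA), while XBP1 and ATF6 turn on chaperones and folding enzymes of the ER. Protein damage in the cytosol is met by a separate program, in which HSF1 raises the heat shock chaperones HSP70 and HSP90 and their partners. K562 cells also hold an erythroid program that can be raised by many agents, seen in globin, heme and red cell membrane genes.

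Genes were kept at 10 CPM or more in at least 2 of the 7 libraries, CPM being counts divided by library size on a common scale, which left 10452 genes. CPM are given after scaling by TMM, a method that sets libraries to a common level from the bulk of their genes, and a log2 fold change is early stage minus control. Calls rest on edgeR's quasi-likelihood test, whose p-values were adjusted over all 10452 genes by the Benjamini-Hochberg method to a false discovery rate (FDR), with 0.005 as the threshold. In all 1881 genes passed, which is 18.0% of those tested. The early stage lines held more RNA of 828 of these genes (7.92% of those tested) and less of 1053 (10.1%). A gene was said not to overlap when all 3 early stage lines lay on the same side of both controls, which held for every called gene. Over all tested genes, called or not, 35.4% lay above both controls in this way and 35.2% below, so that the condition alone is common. An exact permutation of 3 lines against 2 cannot give a two-sided p under 0.1 for any single gene, while the model draws on the spread shared across genes. Each count is followed, where given, by the number of its genes still called when the drug naive, DMSO, 10, 15 or 25 nM library is left out, in this order. These are called leave-out counts and leave-out fits, and an FDR given for them is the highest of the 5.

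The test calls genes whose lines differ little, so their spread stands beside that of all tested genes. Among the 828 higher genes the median log2 ratio to the control mean was 0.90, 1.01 and 0.98 for the 10, 15 and 25 nM lines. For the 1053 lower genes it was -1.01, -1.08 and -1.02. The range of a gene's ratios over the 3 lines had a median of 0.20 among higher and 0.24 among lower genes on the log2 scale, and 805 of the 828 and 985 of the 1053 kept their lines within 1. Over all 10452 tested genes the median range was 0.21, and 10079 kept their lines within 1. The log2 ratio was beyond 1 in all 3 lines for 320 higher and 469 lower genes. The 15 nM line most often had the largest change, in 443 of the 828 higher and 576 of the 1053 lower genes, as it had in 4827 of all 10452 tested genes. Between lines of 1 group, the median size of the log2 ratio was 0.153 for drug naive against DMSO, 0.151 for 10 against 15 nM, 0.118 for 10 against 25 nM and 0.114 for 15 against 25 nM. In the same order, genes apart by more than 1 numbered 106 (1.01%), 322 (3.08%), 142 (1.36%) and 202 (1.93%). The limit of 10 CPM was met in early stage libraries alone by 154 of the higher genes and in control libraries alone by 188 of the lower genes. Of these, 66 of the higher and 31 of the lower genes also reached it in both late stage libraries. The others could enter the test only through the group in which they were high, or with a late stage library.

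**Figure D1:**
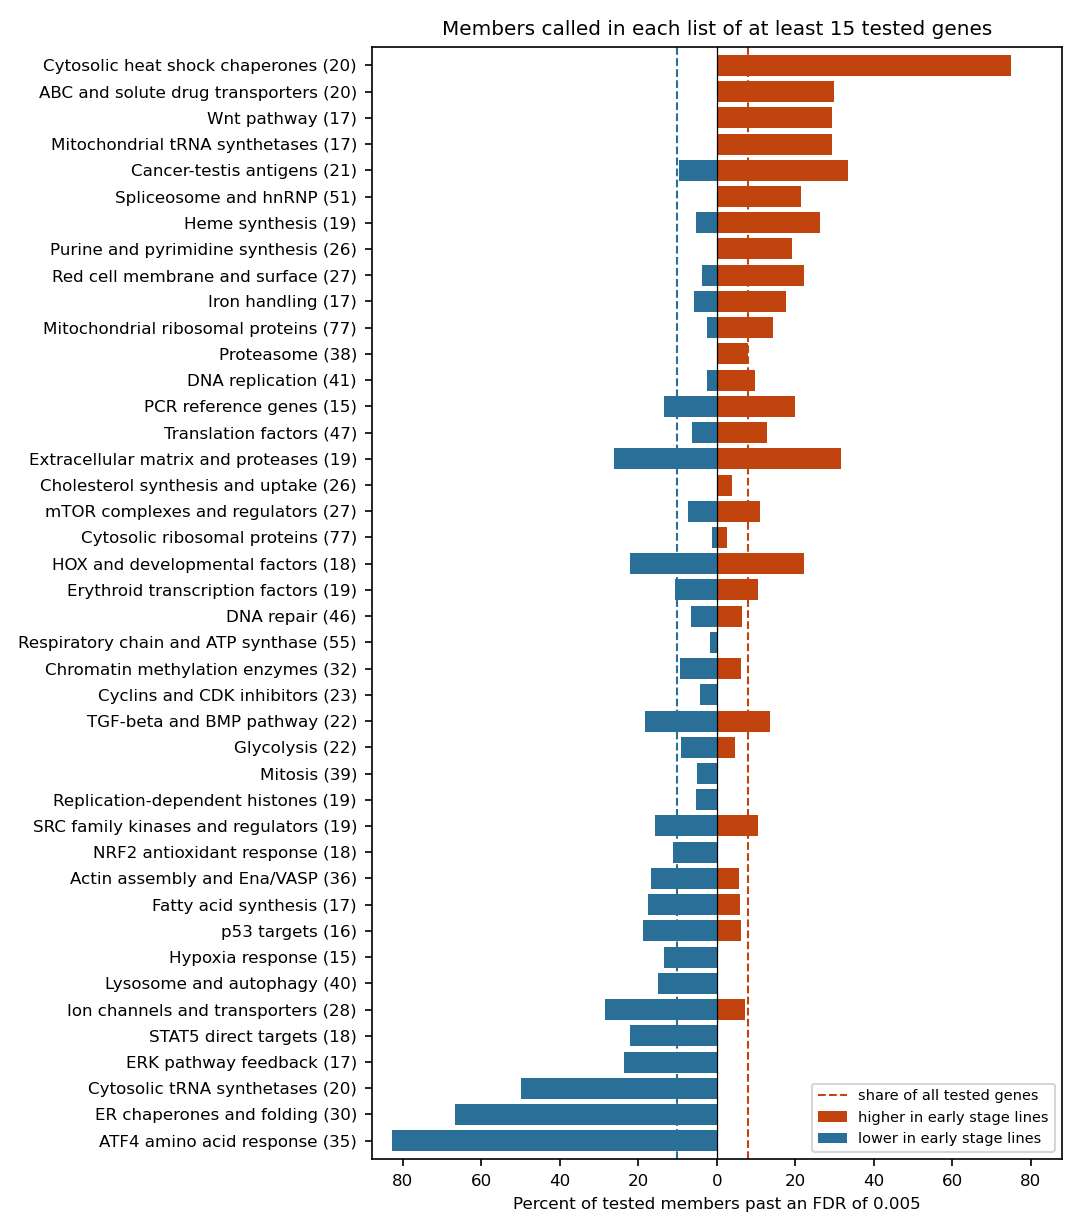
Percent of the tested members of each gene list of at least 15 tested genes (number tested in parentheses) that passed an edgeR FDR of 0.005 in the early stage lines against controls, lower members to the left and higher members to the right, with the shares over all 10452 tested genes as dashed lines. The ATF4 amino acid response list reaches furthest to the left, with 29 of 35 members lower, and the cytosolic heat shock chaperones furthest to the right, with 15 of 20 members higher.

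Lists of genes with a shared function, written by hand, were used to describe what moved. Each count of called members stands beside 7.92% higher and 10.1% lower of all tested genes. Lists near these shares give no result about their members as a group. The 3 most one-sided among the stress lists were the ATF4 amino acid response, lower in 29 of 35 tested members, the ER chaperones, lower in 20 of 30, and the cytosolic heat shock chaperones, higher in 15 of 20. The promoters of some called members hold matches to motifs of response elements that ATF4, HSF1 and the ER stress factors are known to read. Binding to these stretches was not tested. The sequences are RefSeq promoters of GRCh38.p14, a later build than the hg19 (GRCh37) of the counts, read 5′ to 3′ on the strand of the gene with matches to a motif in capitals and given only up to the base before the transcription start.

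Capitals mark the core of the C/EBP and ATF response element, TGATGNAA, on either strand. The stretch of ASNS is chr7:97872409-97872516, reverse strand, that of ATF3 is chr1:212565176-212565406, forward strand, and that of CHAC1 is chr15:40953222-40953470, forward strand.

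ASNS: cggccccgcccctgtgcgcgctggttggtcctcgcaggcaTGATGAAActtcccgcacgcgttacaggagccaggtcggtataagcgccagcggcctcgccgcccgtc

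ATF3: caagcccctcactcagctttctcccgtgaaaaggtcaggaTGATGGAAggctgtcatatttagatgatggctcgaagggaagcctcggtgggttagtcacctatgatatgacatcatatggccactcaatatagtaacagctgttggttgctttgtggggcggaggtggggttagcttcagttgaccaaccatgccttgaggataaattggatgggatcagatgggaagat

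CHAC1: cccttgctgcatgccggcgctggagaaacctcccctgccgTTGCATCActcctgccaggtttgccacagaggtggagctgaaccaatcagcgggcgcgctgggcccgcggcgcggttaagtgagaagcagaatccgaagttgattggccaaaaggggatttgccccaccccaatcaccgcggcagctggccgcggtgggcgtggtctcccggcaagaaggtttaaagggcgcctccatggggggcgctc

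In the next pair, capitals mark the heat shock element, searched as the units GAA, TTC and GAA with a pair of any bases between neighbours, on either strand. In CHORDC1 overlapping matches join into 1 run. HSPA8 is shown for chr11:123062137-123062386, reverse strand, and CHORDC1 for chr11:90223050-90223149, reverse strand.

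HSPA8: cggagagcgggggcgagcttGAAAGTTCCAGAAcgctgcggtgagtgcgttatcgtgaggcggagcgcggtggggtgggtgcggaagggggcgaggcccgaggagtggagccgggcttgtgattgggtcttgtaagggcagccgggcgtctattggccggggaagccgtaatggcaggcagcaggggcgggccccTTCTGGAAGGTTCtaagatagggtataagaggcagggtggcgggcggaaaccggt

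CHORDC1: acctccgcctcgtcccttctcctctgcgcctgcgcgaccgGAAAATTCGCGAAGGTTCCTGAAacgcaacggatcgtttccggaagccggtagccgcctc

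In the last pair, capitals mark the ER stress response element, searched as a CCAAT box and CCACG with a fixed gap between them, on either strand. HSPA5 is shown for chr9:125241344-125241449, reverse strand, and HSP90B1 for chr12:103930176-103930409, forward strand.

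HSPA5: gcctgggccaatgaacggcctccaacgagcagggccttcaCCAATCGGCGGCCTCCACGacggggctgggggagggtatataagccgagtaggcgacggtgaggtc

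HSP90B1: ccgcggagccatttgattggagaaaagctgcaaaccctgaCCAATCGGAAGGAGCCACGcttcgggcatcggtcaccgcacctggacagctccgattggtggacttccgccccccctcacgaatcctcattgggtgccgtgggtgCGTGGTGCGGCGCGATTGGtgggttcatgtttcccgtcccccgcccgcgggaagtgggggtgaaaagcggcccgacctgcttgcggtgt

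The TGATGNAA core was found in 5 of the 24 promoters (20.8%) that could be matched to the 29 lower ATF4 members, ASNS, ATF3, SLC7A1, CHAC1 and SLC3A2, and in 3.67% of all 27305 promoters of the same length and 1.53% of the 8339 that belong to tested genes. For all 15 higher heat shock chaperones a promoter was matched, and 3 of them (20%), HSPA8, DNAJA1 and CHORDC1, held the heat shock element, found in 0.487% of all promoters and 0.324% of those of tested genes. Among 19 promoters of the 20 lower ER members, 4 (21.1%) held the ER stress response element, HSPA5, HSP90B1, ERO1LB and XBP1, against 0.0806% of all promoters and 0.144% of those of tested genes. These matches are a description of the letters within 250 bases before and 50 after the start. The lists were written by hand around known responses, so shares above those of all promoters say nothing about the RNA changes. No share was taken for list members without a call.

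Genes of the ATF4 amino acid response fell together in the 3 early stage lines. Of 35 tested members 29 fell and none rose, 33 lay below both controls in every line, and the median log2 fold change was -1.63 against 0.00 over all tested genes. The medians of the separate lines were -1.46, -1.80 and -1.63 at 10, 15 and 25 nM, and 23 members had a log2 ratio beyond 1 in all 3 lines. Leave-out counts were 13, 14, 23, 23 and 17, with 12 members called in every such fit, and 2 members met the CPM limit in controls alone. VLDLR and NUPR1 were too low to test.

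ASNS makes asparagine from aspartate and lies at GRCh37 chromosome 7 from 97480989 to 97501854, reverse strand. It held 937 CPM in the drug naive and 956 CPM in the DMSO library and 187, 177 and 200.1 CPM at 10, 15 and 25 nM. Its early stage levels were close to one another and far below both controls (log2 fold change -2.33, SE 0.10, edgeR FDR 6.17e-05 and at most 0.000942 in leave-out fits). PHGDH, the first enzyme of serine synthesis, went from 413 and 353 in the controls to 74.1, 74.8 and 70.1 CPM at 10, 15 and 25 nM. Again no line overlapped a control (log2 fold change -2.39, SE 0.13, edgeR FDR 7.76e-05 and at most 0.00154 in leave-out fits). The later enzymes of that path, PSAT1 and PSPH, fell as well (log2 fold change -2.25, edgeR FDR 0.000995 and log2 fold change -1.19, edgeR FDR 0.000876), and PSAT1 differed between the lines, at 93.3, 46.2 and 87.3 CPM against 337 and 383 CPM in the controls. Mitochondrial one-carbon metabolism, which passes on the carbon of serine, was represented by SHMT2, MTHFD2 and ALDH1L2, with log2 fold changes of -1.07, -2.42 and -2.98, and all 3 passed in every leave-out fit. ALDH1L2 was at 293 and 243 in the controls and 36.8, 29.3 and 35.8 CPM at 10, 15 and 25 nM.

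Among the amino acid transporters, SLC7A5 of the large neutral amino acid carrier went from 518 and 598 in the controls to 262, 240.2 and 277 CPM at 10, 15 and 25 nM (log2 fold change -1.10, SE 0.11, edgeR FDR 0.000595 and at most 0.00499 in leave-out fits). SLC7A11, which imports cystine, was lower in all lines but spread among them, at 401 and 368 in the controls and 139.8, 62.5 and 90.7 CPM at 10, 15 and 25 nM (log2 fold change -1.98, SE 0.28, edgeR FDR 0.00202 and 0.0179 without drug naive). SLC7A1, SLC1A4, SLC38A2, SLC6A9 and SLC3A2 fell as well, with log2 fold changes between -1.63 and -0.70. SLC1A5, a glutamine carrier, was at 575 and 619.9 in the controls and 479, 496 and 520.5 CPM at 10, 15 and 25 nM and did not pass (log2 fold change -0.26, edgeR FDR 0.0549). CTH, which makes cysteine from cystathionine, fell from 137 and 131 in the controls to 17.1, 14.8 and 18.6 CPM at 10, 15 and 25 nM (log2 fold change -2.995, SE 0.18, edgeR FDR 0.000118 and at most 0.00219 in leave-out fits).

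The transcription factors of the list fell by very different amounts. ATF5 had the largest change, from 588 and 500.4 in the controls to 36.5, 41.3 and 45.6 CPM at 10, 15 and 25 nM (log2 fold change -3.73, SE 0.25, edgeR FDR 0.000152 and at most 0.00241 in leave-out fits). DDIT3, also called CHOP and tied to stress-induced death, was at 112 and 94.1 in the controls and 24.6, 28.4 and 27.9 CPM at 10, 15 and 25 nM (log2 fold change -1.94, SE 0.13, edgeR FDR 0.000170 and at most 0.00269 in leave-out fits). CEBPG and ATF3 had log2 fold changes of -1.34 and -1.96. ATF4 itself, whose activity is set mainly at translation, fell the least of the called members, from 566 and 469 in the controls to 321, 343 and 355 CPM at 10, 15 and 25 nM (log2 fold change -0.61, SE 0.11, edgeR FDR 0.00381 and 0.0281 without drug naive). JDP2, CEBPB and EIF4EBP1 lay below both controls in every line without passing the threshold, with FDRs of 0.00603, 0.00607 and 0.00921 by edgeR. CHAC1, which breaks down glutathione, fell from 40.05 and 56.5 in the controls to 2.93, 4.99 and 3.49 CPM at 10, 15 and 25 nM (log2 fold change -3.66, SE 0.50, edgeR FDR 0.00164 and 0.0113 without DMSO). DDIT4, an inhibitor of mTOR, and SESN2, which senses leucine, had log2 fold changes of -2.89 and -1.97. ALDH18A1 and PYCR1 of proline synthesis did not pass, with log2 fold changes of 0.27 and -0.11.

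The cytosolic tRNA synthetases, which load each amino acid on its tRNA, divided into enzymes that fell and enzymes that did not pass. Of 20 tested members 10 fell and none rose, with a median log2 fold change of -0.52 and leave-out counts of 6, 7, 9, 9 and 7. WARS, for tryptophan, changed most, from 1212 and 1237 in the controls to 275, 188 and 237 CPM at 10, 15 and 25 nM (log2 fold change -2.39, SE 0.15, edgeR FDR 0.000132 and at most 0.00221 in leave-out fits). AARS, for alanine, was at 1048 and 919 in the controls and 399, 379 and 399.7 CPM at 10, 15 and 25 nM (log2 fold change -1.33, SE 0.10, edgeR FDR 0.000183 and at most 0.00276 in leave-out fits). SARS, IARS, YARS and MARS had log2 fold changes of -1.08, -0.94, -0.92 and -0.91. These 4 with WARS and AARS passed in every leave-out fit. KARS, HARS and VARS, for lysine, histidine and valine, gave no call, with log2 fold changes of -0.05, 0.11 and 0.23. KARS was at 253 and 279 in the controls and 252, 259.8 and 261 CPM at 10, 15 and 25 nM.

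Their mitochondrial counterparts went the other way where they passed. Of 17 tested members 5 rose and none fell, with a median of 0.15, and leave-out counts were 0, 0, 1, 1 and 0. With library totals as the scale, or with a 1 CPM filter, 3 rose. EARS2, for glutamate, rose from 39.1 and 47.02 in the controls to 77.7, 99.3 and 93.5 CPM at 10, 15 and 25 nM (log2 fold change 1.07, SE 0.14, edgeR FDR 0.00129 and 0.0142 without drug naive). LARS2, MARS2, AARS2 and YARS2 rose by 0.66, 0.90, 0.51 and 0.67 on the log2 scale, and none of the 5 passed in every leave-out fit. For alanine, glutamate, methionine and tyrosine the cytosolic enzyme (AARS, EPRS, MARS, YARS) fell and the mitochondrial one (AARS2, EARS2, MARS2, YARS2) rose.

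Chaperones and folding enzymes of the ER were lower in the early stage lines. Of 30 tested members 20 fell and none rose, 27 did not overlap below, and the median log2 fold change was -0.77, with -0.83, -0.77 and -0.71 in the 10, 15 and 25 nM lines. Leave-out counts were 6, 12, 14, 13 and 9, and 6 passed in every fit. HSPA5 (BiP), the main chaperone of the ER lumen, at GRCh37 chromosome 9 from 127997132 to 128003661, reverse strand, had 1874 CPM in the drug naive and 1518 CPM in the DMSO library and 411, 409 and 454 CPM at 10, 15 and 25 nM. Its 3 early stage values were nearly equal, and the controls lay well above them (log2 fold change -1.997, SE 0.11, edgeR FDR 7.76e-05 and at most 0.00106 in leave-out fits). HSP90B1, the ER form of HSP90, was at 1522 and 1063 in the controls and 647, 595 and 646 CPM at 10, 15 and 25 nM (log2 fold change -1.04, SE 0.15, edgeR FDR 0.00182 and 0.00827 without 25 nM). HYOU1, which helps BiP release its clients, fell from 912 and 729 in the controls to 292, 282 and 292 CPM at 10, 15 and 25 nM (log2 fold change -1.51, SE 0.11, edgeR FDR 0.000173 and at most 0.00168 in leave-out fits).

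The sensors of the unfolded protein response fell with its targets. ERN1 (IRE1), the sensor that splices XBP1 mRNA, was at 73.7 and 57.6 in the controls and 16.9, 18.97 and 17.9 CPM at 10, 15 and 25 nM (log2 fold change -1.87, SE 0.14, edgeR FDR 0.000186 and at most 0.00250 in leave-out fits). ATF6, XBP1 and EIF2AK3 (PERK, counted with the translation factors) had log2 fold changes of -0.77, -0.78 and -0.80. Genes of ER-associated degradation, which returns misfolded protein to the cytosol, included SEL1L, HERPUD1, EDEM1 and SYVN1, with log2 fold changes of -1.94, -2.14, -1.34 and -0.54. SEL1L was at 291 and 247 in the controls and 70.1, 67.4 and 72.6 CPM at 10, 15 and 25 nM. ERO1LB, an oxidase for disulfide bonds, had the largest fold change of the list, from 37.3 and 26.9 in the controls to 1.17, 1.16 and 0.758 CPM at 10, 15 and 25 nM, and it met the CPM limit only in controls (log2 fold change -4.94, SE 0.70, edgeR FDR 0.00189 and 0.0158 without drug naive). CANX, P4HB and PDIA4 lay below both controls in every line and did not pass (edgeR FDR 0.00734, 0.0104 and 0.0103), and for CALR the FDR was 0.0345. SDF2L1, a partner of BiP, was at 95.7 and 93.2 in the controls and 133, 148 and 131 CPM at 10, 15 and 25 nM, the only tested member that lay above both controls in every line, and it did not pass (log2 fold change 0.54, edgeR FDR 0.114).

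In contrast to the ER chaperones, most of the listed heat shock chaperones of the cytosol rose. Of 20 tested members 15 rose and none fell, with a median log2 fold change of 0.98 and 0.96, 1.02 and 1.05 in the 3 lines. Outside this list, the HSP70 family genes HSPA6, HSPA9 and HSPA13 passed as lower. The absence of lower genes therefore holds for the listed members only, and the list was written with earlier results of these data known. Leave-out counts were 7, 10, 12, 12 and 11, and 7 passed in every fit. HSPA8, the constitutive HSP70, lies at GRCh37 chromosome 11 from 122928197 to 122933938, reverse strand and held 744 CPM in the drug naive and 869 CPM in the DMSO library and 2279, 2401 and 2449 CPM at 10, 15 and 25 nM. All early stage values lay above both controls and close together (log2 fold change 1.56, SE 0.10, edgeR FDR 0.000118 and at most 0.00171 in leave-out fits). HSP90AA1, the inducible cytosolic HSP90, rose from 873 and 959.9 in the controls to 2382, 2706 and 2947 CPM at 10, 15 and 25 nM (log2 fold change 1.55, SE 0.11, edgeR FDR 0.000174 and at most 0.00345 in leave-out fits), and its constitutive relative HSP90AB1 had a log2 fold change of 0.80.

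Partners of both machines moved with them. HSPH1, which exchanges the nucleotide of HSP70, was at 53.8 and 68.9 in the controls and 252, 310.3 and 297 CPM at 10, 15 and 25 nM (log2 fold change 2.22, SE 0.15, edgeR FDR 0.000152 and at most 0.00219 in leave-out fits). DNAJA1 and DNAJB1, which hand clients to HSP70, had log2 fold changes of 1.54 and 1.15, and AHSA1 and STIP1, partners of HSP90, had 1.28 and 0.89. The stress-induced pair HSPA1A and HSPA1B rose most, with HSPA1A from 86.3 and 66.4 in the controls to 404, 570.3 and 446 CPM at 10, 15 and 25 nM (log2 fold change 2.63, SE 0.20, edgeR FDR 0.000213 and at most 0.00314 in leave-out fits). Reads of HSPA1A and HSPA1B may be shared between them, since they are near-identical copies, so their values are uncertain as separate genes. Of the mitochondrial chaperones counted in the same list, HSPE1 rose by 1.67 and its larger partner HSPD1 by 0.51 on the log2 scale. HSF1, the regulator, was at 79.6 and 83.6 in the controls and 96.8, 91.2 and 91.99 CPM at 10, 15 and 25 nM and did not pass (log2 fold change 0.19, edgeR FDR 0.244), nor did BAG3 (log2 fold change 0.20, edgeR FDR 0.108), another gene HSF1 is known to raise.

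**Figure D2:**
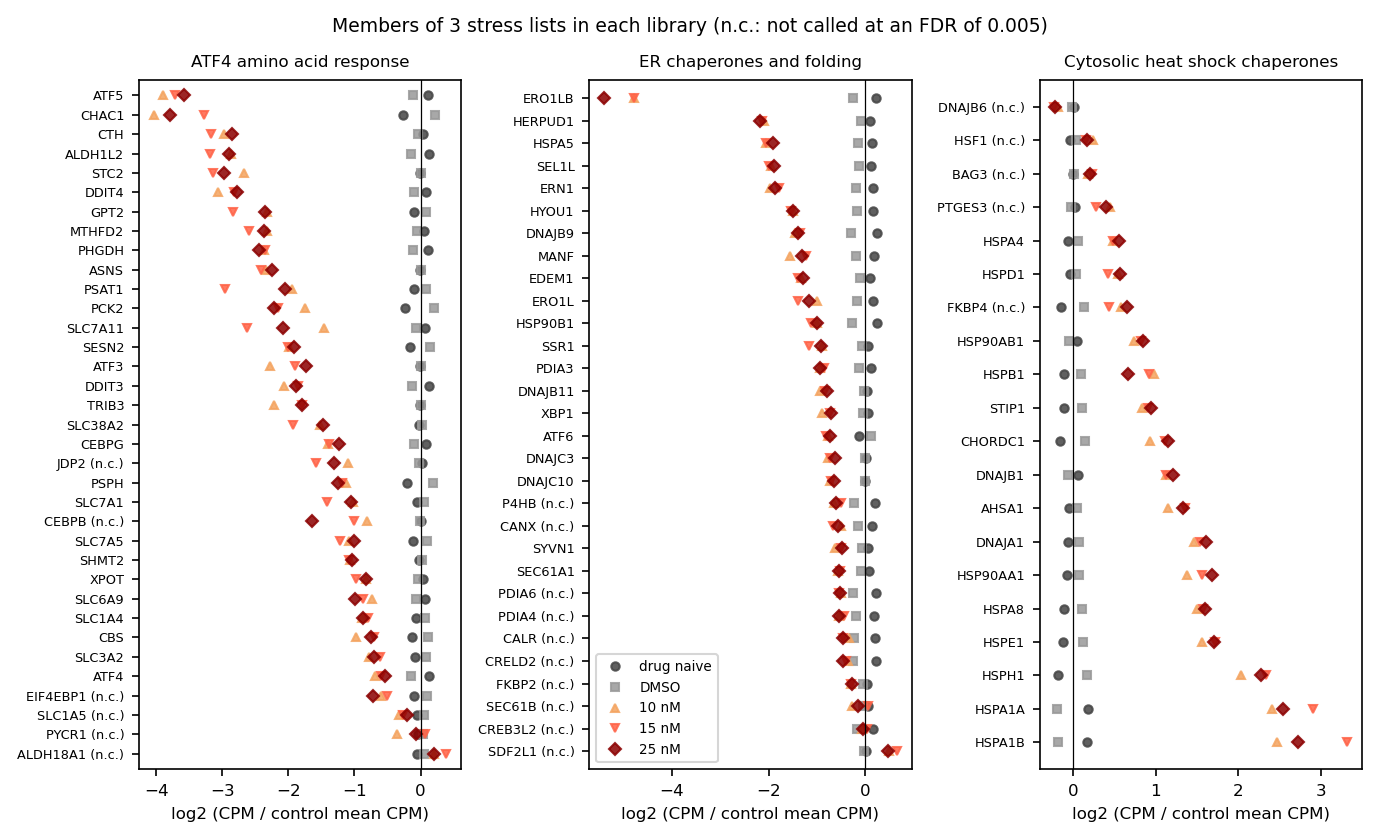
Log2 ratio of each early stage line (10, 15 and 25 nM, 1 symbol per line) to the control mean for the tested members of the ATF4 amino acid response, the ER chaperones and the cytosolic heat shock chaperones, beside the drug naive and DMSO libraries, with n.c. after members not past an edgeR FDR of 0.005. The 3 lines lie close together for most members, below 0 for most of the first and second lists and above 0 for most of the third, and SLC7A11 and PSAT1 show the widest gaps in the ATF4 panel.

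Splicing factors and mitochondrial ribosomal proteins were more often higher than lower. Of 51 tested spliceosome members 11 rose and none fell, with a median of 0.37 (leave-out counts 1, 1, 6, 3 and 1). SRSF2, a splicing factor that binds exons, rose from 208 and 184 in the controls to 398, 418 and 437 CPM at 10, 15 and 25 nM (log2 fold change 1.09, SE 0.09, edgeR FDR 0.000309 and at most 0.00322 in leave-out fits). SRSF1, SRSF3, SRSF4 and SRSF7 of the same family and both subunits of the U2 auxiliary factor, U2AF1 and U2AF2, rose by 0.88 on the log2 scale or less. Of 77 tested mitochondrial ribosomal proteins 11 rose and 2 fell, with a median of 0.27 (leave-out counts 0, 2, 8, 4 and 2 higher). MRPS12 rose from 15.8 and 18.2 in the controls to 42.3, 48.1 and 43.8 CPM at 10, 15 and 25 nM (log2 fold change 1.39, SE 0.14, edgeR FDR 0.000622 and 0.00868 without drug naive), and MRPL45 and MRPS35 were the members that fell, with log2 fold changes of -0.56 and -0.47. Proteins of the cytosolic ribosome gave only 3 calls among 77, RPS26 and RPL38 higher and RPL19 lower, with a median of 0.02 (leave-out counts 0, 0, 2, 1 and 1 higher and 0, 0, 0, 0 and 0 lower). In nucleotide synthesis 5 of 26 rose and none fell (leave-out counts 0, 2, 2, 1 and 0), among them UMPS and DHODH of the pyrimidine path, with log2 fold changes of 0.90 and 0.84, and CTPS1 with 0.78.

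Translation factors were mixed, with 6 of 47 higher and 3 lower (leave-out counts 0, 1, 1, 0 and 0 higher and 1, 1, 2, 1 and 1 lower), and with a 1 CPM filter 3 were higher. EIF1, which holds the scanning ribosome until it meets a start codon, fell from 998 and 873 in the controls to 262, 262 and 275 CPM at 10, 15 and 25 nM (log2 fold change -1.81, SE 0.13, edgeR FDR 0.000186 and at most 0.00314 in leave-out fits). EIF5, its partner in start codon choice, rose from 196 and 209 in the controls to 392, 432 and 428 CPM at 10, 15 and 25 nM (log2 fold change 1.04, SE 0.15, edgeR FDR 0.00184 and 0.0207 without drug naive).

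Of the tested globin, heme and red cell membrane genes 85.7%, 63.2% and 74.1% lay above both controls in every line. Over all tested genes the share was 35.4%. Of 7 tested globin genes 3 passed, all higher, and 6 lay above both controls in every line. Leave-out counts were 0, 0, 0, 0 and 1, so no globin call was left unless the library left out was that of 25 nM. HBG1, a fetal globin that K562 cells express, held 857 CPM in the drug naive and 670.01 CPM in the DMSO library and 2023, 1856 and 1519 CPM at 10, 15 and 25 nM. Its change was 1.24 on the log2 scale (SE 0.19, edgeR FDR 0.00240, and 0.0195 without the DMSO library). The alpha globin gene HBA2 rose more, from 72.9 and 132 in the controls to 1121, 1278 and 1107 CPM at 10, 15 and 25 nM (log2 fold change 3.51, SE 0.57, edgeR FDR 0.00307 and 0.0322 without drug naive). The controls of HBA2 differed from each other. HBA1 had a log2 fold change of 3.06 (edgeR FDR 0.00469). HBZ, the embryonic alpha-like globin, had the largest ratio of the globins, with 62.2 and 74.5 in the controls and 1900.2, 2879 and 1943 CPM at 10, 15 and 25 nM, yet it missed the threshold (log2 fold change 5.03, SE 0.98, edgeR FDR 0.00604). HBG2 and HBQ1 also lay above both controls without passing, and HBE1 overlapped them, at 681 and 602 in the controls and 481, 1663 and 729.6 CPM at 10, 15 and 25 nM. HBA1 and HBA2, and likewise HBG1 and HBG2, are near-identical copies whose reads can be exchanged. HBB, HBD and HBM, with the globin chaperone gene AHSP, stayed under the limit for testing.

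In heme synthesis and transport 5 of 19 members rose and 1 fell, with a median of 0.47 (leave-out counts 0, 0, 2, 2 and 1 higher and 0, 0, 0, 0 and 0 lower). ABCB6, a porphyrin transporter, rose from 46.4 and 41.01 in the controls to 103, 131 and 100.02 CPM at 10, 15 and 25 nM (log2 fold change 1.35, SE 0.15, edgeR FDR 0.000808 and 0.00854 without drug naive). FECH, an enzyme of the path, had a log2 fold change of 0.82. ALAS2, the erythroid first enzyme, stood at 61.6 and 41.1 in the controls and 384, 518 and 304 CPM at 10, 15 and 25 nM with no overlap but did not pass (log2 fold change 2.97, edgeR FDR 0.0255). TSPO, a mitochondrial membrane protein that binds porphyrins, was the member that fell (log2 fold change -1.30, SE 0.21, edgeR FDR 0.00295 and 0.0229 without drug naive). Of 17 iron handling genes 3 rose, TFRC, STEAP3 and SLC39A8, and 1 fell, SLC39A14, with a median of -0.02 (leave-out counts 2, 2, 2, 2 and 1 higher and 0, 0, 0, 0 and 0 lower). TFRC, the transferrin receptor, rose from 621 and 486 in the controls to 1243, 1152 and 1234 CPM at 10, 15 and 25 nM (log2 fold change 1.13, SE 0.12, edgeR FDR 0.000677 and at most 0.00390 in leave-out fits), as did STEAP3, the endosomal ferrireductase (log2 fold change 1.24, edgeR FDR 0.00132), whereas the ferritin genes FTH1 and FTL did not pass (log2 fold change -0.32, edgeR FDR 0.233 and log2 fold change -0.31, edgeR FDR 0.114). Both SLC39 genes encode metal importers, with log2 fold changes of 1.48 for SLC39A8 and -1.08 for SLC39A14.

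Red cell membrane and surface genes rose in 6 of 27 members and fell in 1, while 20 of the 27 lay above both controls in every line, 74.1% against 35.4% of all tested genes. Leave-out counts were 1, 2, 4, 3 and 2 higher and 0, 1, 1, 1 and 1 lower, and a fit of the 5 control and early stage libraries alone called 16 higher. ANK1, the ankyrin that ties the membrane to the spectrin skeleton, had 269 CPM in the drug naive and 284 CPM in the DMSO library and 619, 581 and 552 CPM at 10, 15 and 25 nM. It did not overlap and was the only one of the list to pass in every leave-out fit (log2 fold change 1.08, SE 0.09, edgeR FDR 0.000262 and at most 0.00488 in leave-out fits). SPTB, the beta spectrin, rose from 77.2 and 95.4 in the controls to 169.6, 182 and 175 CPM at 10, 15 and 25 nM (log2 fold change 1.02, SE 0.12, edgeR FDR 0.000839 and 0.00743 without drug naive). SLC2A1, the glucose carrier of red cells, was at 174 and 143 in the controls and 457, 616 and 498 CPM at 10, 15 and 25 nM (log2 fold change 1.73, SE 0.22, edgeR FDR 0.00124 and 0.0125 without DMSO). XK and KEL, whose proteins form the Kell blood group complex, rose by 1.64 and 1.57 on the log2 scale. SLC4A1, the anion exchanger, differed between lines, at 5.32 and 4.97 in the controls and 141, 65.01 and 58.3 CPM at 10, 15 and 25 nM, and did not pass (log2 fold change 4.10, edgeR FDR 0.0212). TPM1, a tropomyosin, was the member that fell, from 79.4 and 55.7 in the controls to 11.9, 17.2 and 16.3 CPM at 10, 15 and 25 nM (log2 fold change -2.16, SE 0.23, edgeR FDR 0.000669 and 0.00731 without drug naive).

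Of 19 erythroid transcription factors 2 rose and 2 fell (leave-out counts 0, 0, 2, 1 and 1 higher and 0, 0, 1, 0 and 0 lower). Both shares were 10.5%, near the 7.92% higher and 10.1% lower of all tested genes. LMO2, the bridging factor of the GATA1 and TAL1 complex, rose from 41.6 and 40.8 in the controls to 91.9, 75.6 and 96.4 CPM at 10, 15 and 25 nM (log2 fold change 1.09, SE 0.12, edgeR FDR 0.000762 and 0.00986 without drug naive), as did ZFPM1, the GATA1 cofactor (log2 fold change 1.06, edgeR FDR 0.00209). GATA2, which acts before GATA1 in the lineage, fell from 151 and 150.04 in the controls to 63.6, 45.7 and 72.2 CPM at 10, 15 and 25 nM (log2 fold change -1.31, SE 0.22, edgeR FDR 0.00355 and 0.0267 without drug naive), and KLF9 fell by 0.73 on the log2 scale. GATA1 itself was at 210.4 and 218 in the controls and 168, 207 and 194 CPM at 10, 15 and 25 nM (log2 fold change -0.18, edgeR FDR 0.283). KLF1 lay above and MYB below both controls in every line, with FDRs by edgeR of 0.00565 and 0.00734 that missed the threshold.

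**Figure D3:**
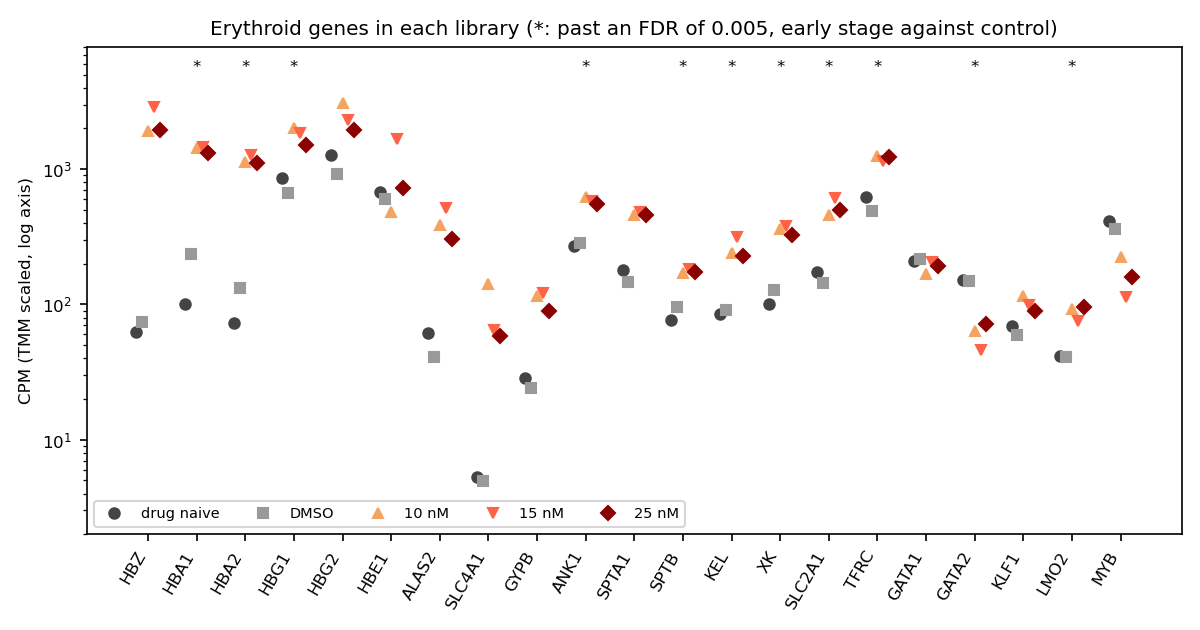
CPM of erythroid genes on a log axis in the drug naive, DMSO, 10, 15 and 25 nM libraries, 1 symbol per library and an asterisk over genes past an edgeR FDR of 0.005. The early stage lines lie above both controls for most globin, heme and membrane genes, below them for GATA1, GATA2 and MYB, and on both sides for HBE1.

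Marker genes of blood and stromal cell types were used to check the label of the lines. All 11 erythroid markers were tested, and their summed level was 4166 CPM in drug naive, 3597 CPM in DMSO, 12358 CPM at 10 nM, 13785 CPM at 15 nM and 10722 CPM at 25 nM, with HBG2 the most abundant in the controls and at 10 nM and HBZ at 15 and 25 nM. The markers of other types were low. The 7 megakaryocyte markers summed to 83.5 and 64.3 CPM in the controls and 23.6, 16.9 and 23.1 CPM in the early stage lines, with ITGA2B the most abundant except at 15 nM, where ITGB3 was, and 4 were at or under 1 CPM in all 5 libraries. For granulocytes and monocytes, 6 markers summed to 71.1, 47.7, 110.8, 27.98 and 44.9 CPM in the order drug naive, DMSO, 10, 15 and 25 nM, with LYZ the most abundant and ELANE, MPO and CSF1R at or under 1 CPM. The 4 lymphocyte markers summed to 25.5 CPM at most, a sum to which CD3D gave the most. Fibroblast markers summed to 19.7 CPM at most and endothelial markers to 5.37 CPM, with CDH5 at 0 counts in all 5 libraries. The part of these other markers in the results was not tested.

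Genes next to the target kinase were described from the lists of SRC family kinases, STAT5 targets and feedback of the ERK pathway, since dasatinib acts on them directly or through BCR::ABL1. GAB2, the adaptor that links BCR::ABL1 to downstream signaling, fell from 395 and 328 in the controls to 78.2, 74.5 and 71.4 CPM at 10, 15 and 25 nM (log2 fold change -2.27, SE 0.10, edgeR FDR 7.76e-05 and at most 0.000942 in leave-out fits), and was the 1 member of the SRC list that passed in every leave-out fit. LYN, a SRC family kinase that dasatinib also binds, had 182 and 177 in the controls and 124, 105 and 118 CPM at 10, 15 and 25 nM (log2 fold change -0.63, SE 0.10, edgeR FDR 0.00266 and 0.0226 without drug naive). YES1 fell by 0.79 and FYN rose by 0.81 on the log2 scale, and the phosphatase gene PTPRA rose by 0.82 (SRC list leave-out counts 0, 1, 1, 1 and 0 higher and 1, 1, 1, 1 and 1 lower). SRC itself was low, at 16.6 and 17.00 in the controls and 9.82, 6.84 and 6.01 CPM at 10, 15 and 25 nM, and did not pass (log2 fold change -1.15, edgeR FDR 0.0118). PTPRC (CD45) had the widest range over the lines in this list, at 182 and 195 in the controls and 11.4, 0.905 and 104 CPM at 10, 15 and 25 nM (log2 fold change -2.30, edgeR FDR 0.172).

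Of 18 tested genes of the STAT5 list 4 fell and none rose, with leave-out counts of 2, 1, 3, 3 and 1. STAT5B went from 397 and 449 in the controls to 212, 203 and 211 CPM at 10, 15 and 25 nM (log2 fold change -1.02, SE 0.09, edgeR FDR 0.000412 and at most 0.00352 in leave-out fits), and STAT5A from 325 and 428 in the controls to 179, 144 and 167 CPM at 10, 15 and 25 nM (log2 fold change -1.21, SE 0.16, edgeR FDR 0.00130 and 0.00880 without DMSO). The kinase PIM1, a classical target, was at 1046 and 1061 in the controls and 405, 369.7 and 388 CPM at 10, 15 and 25 nM (log2 fold change -1.44, SE 0.20, edgeR FDR 0.00188 and 0.0162 without drug naive). SOCS2, a feedback inhibitor, fell by 0.87, while CISH, another feedback target, gave 79.3 and 81.9 in the controls and 59.2, 74.6 and 79.9 CPM at 10, 15 and 25 nM and overlapped the controls (log2 fold change -0.18, edgeR FDR 0.468). In the ERK list 4 of 17 fell and none rose, with leave-out counts of 0, 0, 3, 4 and 3. These were ETV1, ETV4, ETV5 and SPRY4, genes known to follow ERK activity. ETV4 was at 59.8 and 71.3 in the controls and 20.1, 16.7 and 23.7 CPM at 10, 15 and 25 nM (log2 fold change -1.70, SE 0.22, edgeR FDR 0.00132 and 0.0109 without DMSO), and SPRY4 at 45.5 and 41.5 in the controls and 11.5, 7.06 and 16.9 CPM at 10, 15 and 25 nM (log2 fold change -1.89, SE 0.31, edgeR FDR 0.00319 and 0.0259 without drug naive). The immediate early gene EGR1 overlapped, with 81.2 and 184 in the controls and 78.3, 108 and 140.3 CPM at 10, 15 and 25 nM. CCND1 and MYEOV differed between lines, with MYEOV at 44.3 and 41.05 in the controls and 2.86, 0.760 and 14.8 CPM at 10, 15 and 25 nM, and neither passed (log2 fold change -1.36, edgeR FDR 0.250 and log2 fold change -2.84, edgeR FDR 0.0344).

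Interferon, HLA and NF-kB genes gave calls only in the downward direction, and of 12 cytokine receptors 3 rose and 2 fell (leave-out counts 0, 0, 2, 1 and 0 higher and 1, 1, 1, 1 and 1 lower). IL20RB, a receptor chain for interleukins of the IL20 group, lies at GRCh37 chromosome 3 from 136665072 to 136729927, forward strand. It went from 70.1 and 68.3 in the controls to 1.28, 1.63 and 2.02 CPM at 10, 15 and 25 nM (log2 fold change -5.41, SE 0.18, edgeR FDR 3.39e-05 and at most 0.000942 in leave-out fits), meeting the CPM limit only in controls. EPOR, the erythropoietin receptor, rose from 21.2 and 18.9 in the controls to 35.9, 46.98 and 37.03 CPM at 10, 15 and 25 nM (log2 fold change 0.99, SE 0.15, edgeR FDR 0.00229 and 0.0185 without DMSO), and LIFR rose by 2.64 on the log2 scale. Of 14 tested interferon response genes 4 fell, IFITM2, IFITM3, STAT2 and PARP9, and none rose, with 7 of the 14 over the CPM limit in 1 group only and leave-out counts of 1, 1, 3, 2 and 1. IFITM3, a membrane protein that restricts viral entry, was at 42.2 and 56.00 in the controls and 10.4, 7.67 and 6.21 CPM at 10, 15 and 25 nM (log2 fold change -2.60, SE 0.23, edgeR FDR 0.000359 and at most 0.00360 in leave-out fits). IFITM2 fell by more and varied between the lines, at 64.4 and 70.9 in the controls and 7.29, 1.99 and 7.73 CPM at 10, 15 and 25 nM. Among 6 HLA genes and their partners HLA-E (log2 fold change -2.01, edgeR FDR 0.00132) and B2M (log2 fold change -0.58, edgeR FDR 0.00411) fell (leave-out counts 0, 0, 2, 1 and 0), and 1 passed in the fit of the 5 libraries alone. Of 13 tested NF-kB and inflammatory genes TNFAIP3, ICAM1 and NFKB2 fell and none rose (leave-out counts 1, 2, 2, 2 and 2). TNFAIP3 (A20), a feedback inhibitor of NF-kB, fell from 81.1 and 80.2 in the controls to 10.3, 10.4 and 12.5 CPM at 10, 15 and 25 nM (log2 fold change -2.87, SE 0.23, edgeR FDR 0.000263 and at most 0.00402 in leave-out fits).

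Of 13 receptor tyrosine kinases 2 rose and 1 fell (leave-out counts 0, 0, 1, 1 and 0 higher and 0, 1, 1, 1 and 1 lower). FGFR3 rose from 49.6 and 56.3 in the controls to 119, 122 and 119 CPM at 10, 15 and 25 nM (log2 fold change 1.18, SE 0.16, edgeR FDR 0.00143 and 0.0178 without drug naive), and FGFR1, near 1 CPM in controls, rose to 40.8, 56.8 and 45.2 CPM at 10, 15 and 25 nM (log2 fold change 5.54, SE 1.004, edgeR FDR 0.00455 and 0.0446 without drug naive). FGFR1 was under the CPM limit in both controls, and 3 of the 13 genes met it in 1 group only. In the Wnt list 5 of 17 rose and none fell (leave-out counts 1, 1, 4, 4 and 1). CTNNB1 (beta-catenin), the effector of the pathway, was at 199.5 and 196 in the controls and 322, 409.8 and 366 CPM at 10, 15 and 25 nM (log2 fold change 0.89, SE 0.11, edgeR FDR 0.00129 and 0.0138 without drug naive), and APC, which promotes its degradation, rose too (log2 fold change 1.47, SE 0.21, edgeR FDR 0.00212 and 0.0190 without DMSO), as did the receptor gene FZD5 and the ligase gene ZNRF3. In the TGF-beta and BMP list 3 of 22 rose and 4 fell (leave-out counts 1, 1, 2, 1 and 1 higher and 2, 2, 3, 3 and 2 lower). SMAD1, which carries the BMP signal, rose from 0.647 and 0.418 in the controls to 11.5, 9.84 and 12.5 CPM at 10, 15 and 25 nM (log2 fold change 4.41, SE 0.33, edgeR FDR 0.000186 and at most 0.00314 in leave-out fits), whereas SMAD3, which carries the TGF-beta signal, fell from 95.8 and 101 in the controls to 48.4, 42.2 and 45.1 CPM at 10, 15 and 25 nM (log2 fold change -1.12, SE 0.10, edgeR FDR 0.000416 and at most 0.00485 in leave-out fits). INHBE, an inhibin chain that ATF4 is known to raise, fell from 109.6 and 79.6 in the controls to 4.21, 6.01 and 7.12 CPM at 10, 15 and 25 nM (log2 fold change -4.04, SE 0.23, edgeR FDR 9.71e-05 and at most 0.00154 in leave-out fits). In this list 2 of the 22 genes met the CPM limit in 1 group only. SMAD1 was under it in both controls, and INHBE in every early stage line. The Notch targets HES1 and HEY1 fell, the only calls among 10 Notch genes, with log2 fold changes of -3.68 and -2.94 (leave-out counts 0, 0, 1, 1 and 1). Their lines lay more than 1 apart on the log2 scale, with a range of 1.90 in HEY1.

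Genes of the cytoskeleton and cell surface gave calls in both directions. VIM, the intermediate filament of mesenchymal and many blood cells, had 1373 CPM in the drug naive and 936 CPM in the DMSO library and 249, 237 and 245 CPM at 10, 15 and 25 nM. The early stage lines hardly differed, and both controls lay far above them although they differed from each other (log2 fold change -2.24, SE 0.15, edgeR FDR 0.000173 and at most 0.00152 in leave-out fits). KRT10 fell by 1.09 and NEFH, a neurofilament, rose by 2.77 on the log2 scale. Of 36 actin genes 6 fell and 2 rose (leave-out counts 1, 1, 1, 1 and 1 higher and 0, 5, 4, 4 and 3 lower). These shares of 16.7% lower and 5.56% higher stand beside 10.1% and 7.92% over all tested genes. FLNA, a filamin that cross-links actin, went from 1896 and 1213 in the controls to 716, 727 and 873 CPM at 10, 15 and 25 nM (log2 fold change -1.01, SE 0.19, edgeR FDR 0.00490 and 0.0263 without drug naive). The tropomyosins TPM1 and TPM4 had log2 fold changes of -2.16 and -1.63, and FMNL1, a formin of blood cells, -2.22. All 3 called genes of the 5 integrins fell (leave-out counts 0, 0, 0, 1 and 0). ITGA5, the fibronectin receptor chain, was at 284 and 194 in the controls and 89.3, 64.4 and 98.9 CPM at 10, 15 and 25 nM (log2 fold change -1.50, SE 0.24, edgeR FDR 0.00287 and 0.0260 without drug naive), and its partner ITGB1 at 592 and 533 in the controls and 389, 358 and 354 CPM at 10, 15 and 25 nM (log2 fold change -0.62, SE 0.10, edgeR FDR 0.00294 and 0.0264 without drug naive). The platelet integrin ITGA2B fell by 2.44 on the log2 scale.

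Genes of the extracellular matrix and its proteases moved in both directions, 6 of 19 higher and 5 lower (leave-out counts 0, 0, 4, 3 and 3 higher and 0, 3, 4, 4 and 2 lower). Of these 19 genes 8 met the CPM limit in 1 group only. COL18A1, a basement membrane collagen, rose from 66.96 and 54.8 in the controls to 619.6, 779 and 581 CPM at 10, 15 and 25 nM (log2 fold change 3.44, SE 0.34, edgeR FDR 0.000531 and 0.00783 without drug naive). HSPG2 (perlecan), another basement membrane component, fell from 779.9 and 590.00 in the controls to 311, 224 and 227 CPM at 10, 15 and 25 nM (log2 fold change -1.43, SE 0.17, edgeR FDR 0.00108 and 0.0109 without drug naive). COL6A1 and COL6A3 encode chains of the same collagen VI. COL6A1 rose from 0.497 and 0.543 in the controls to 7.77, 13.7 and 10.5 CPM at 10, 15 and 25 nM (log2 fold change 4.34, SE 0.43, edgeR FDR 0.000555 and 0.00914 without drug naive). COL6A3 fell from 146 and 66.4 in the controls to 1.98, 0.362 and 0.758 CPM at 10, 15 and 25 nM (log2 fold change -6.65, SE 0.64, edgeR FDR 0.000496 and 0.00583 without drug naive), and its controls differed from each other. The proteases PLAU and MMP14 had log2 fold changes of -3.31 and -1.71. The metalloprotease ADAM19 rose by 4.26 on the log2 scale. Of 14 semaphorin, plexin, netrin and slit genes 3 rose and 2 fell (leave-out counts 0, 0, 2, 1 and 1 higher and 1, 1, 2, 2 and 2 lower). UNC5B, a netrin receptor, fell from 229.9 and 164 in the controls to 10.7, 20.5 and 14.3 CPM at 10, 15 and 25 nM (log2 fold change -3.69, SE 0.27, edgeR FDR 0.000186 and at most 0.00276 in leave-out fits). SEMA3F, a secreted guidance signal, rose from 3.43 and 4.43 in the controls to 34.1, 53.2 and 41.7 CPM at 10, 15 and 25 nM (log2 fold change 3.45, SE 0.38, edgeR FDR 0.000810 and 0.0127 without drug naive). Of 9 cadherins and their partners 2 rose, CTNNB1 and CDH24, and 2 fell, CTNNA1 (alpha-catenin) and JUP (plakoglobin), with log2 fold changes of 0.89, 1.15, -1.01 and -0.90 and a median of 0.34 over the list (leave-out counts 0, 0, 2, 2 and 0 higher and 1, 2, 2, 2 and 1 lower).

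Of 20 tested genes of the ABC family and of solute carriers that can take up drugs 6 rose and none fell. These were SLC22A4, SLC19A1, SLC29A1, SLCO4A1, ABCB6 and ABCF1, of which ABCF1 has no membrane domain and acts in translation. Leave-out counts were 1, 1, 5, 5 and 4. SLC19A1, the reduced folate carrier, rose from 22.3 and 30.4 in the controls to 71.5, 81.7 and 79.5 CPM at 10, 15 and 25 nM (log2 fold change 1.55, SE 0.15, edgeR FDR 0.000548 and at most 0.00435 in leave-out fits). SLC29A1, a nucleoside carrier that takes up cytarabine, had 118 and 132 in the controls and 247, 259 and 227 CPM at 10, 15 and 25 nM (log2 fold change 0.96, SE 0.11, edgeR FDR 0.000799 and 0.0100 without drug naive), and SLC22A4, a cation carrier, rose by 2.002 on the log2 scale. Ion channels and pumps fell in 8 of 28 members and rose in 2 (leave-out counts 2, 2, 2, 2 and 2 higher and 1, 3, 5, 6 and 5 lower). ATP2A3, a calcium pump of the ER in blood cells, fell from 676 and 657 in the controls to 77.3, 36.95 and 71.8 CPM at 10, 15 and 25 nM (log2 fold change -3.43, SE 0.28, edgeR FDR 0.000284 and at most 0.00401 in leave-out fits). KCNH2, a potassium channel, was at 513 and 499.9 in the controls and 164, 105 and 160.4 CPM at 10, 15 and 25 nM (log2 fold change -1.82, SE 0.19, edgeR FDR 0.000686 and 0.00813 without drug naive), and the cotransporter gene SLC12A7 rose from 17.2 and 8.14 in the controls to 139.9, 159.9 and 135 CPM at 10, 15 and 25 nM (log2 fold change 3.53, SE 0.37, edgeR FDR 0.000662 and at most 0.00380 in leave-out fits).

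Glycolysis and hypoxia genes were mostly lower but gave few calls. Of 22 glycolysis genes 19 had a negative log2 fold change, 12 (54.5%) lay below both controls against 35.2% of all tested genes, and the median was -0.40. Of 15 hypoxia genes 14 were negative, with a median of -0.53. Without the drug naive library the medians were -0.07 for glycolysis and 0.03 for hypoxia genes. Calls were 1 higher and 2 lower in glycolysis (leave-out counts 0, 0, 1, 1 and 0 higher and 0, 1, 0, 0 and 0 lower) and 2 lower in the hypoxia list (leave-out counts 1, 1, 1, 1 and 1). SLC2A3, the second glucose carrier, fell from 345 and 212 in the controls to 87.3, 54.3 and 104 CPM at 10, 15 and 25 nM (log2 fold change -1.77, SE 0.30, edgeR FDR 0.00358 and 0.0315 without drug naive), so that both glucose carriers moved, in opposite directions. PFKP, a phosphofructokinase, fell by 0.85 on the log2 scale, and the other 19 of 22 glycolysis genes gave no call. VEGFA, a target of hypoxia and of ATF4, was at 861 and 551 in the controls and 118, 77.02 and 105 CPM at 10, 15 and 25 nM (log2 fold change -2.82, SE 0.24, edgeR FDR 0.000312 and at most 0.00314 in leave-out fits). The drug naive library stood above the DMSO library in several hypoxia genes, with P4HA1 at 279 and 102 CPM, PDK1 at 109 and 52.6 CPM and BNIP3L at 244 and 106 CPM, and none of these passed. Of 55 respiratory chain genes only UQCRC2 passed, lower (log2 fold change -0.50, edgeR FDR 0.00367), and it was lost in each leave-out fit. Of 26 genes of cholesterol synthesis and uptake 1 rose, lost in each leave-out fit, and none fell. PLIN2, a coat protein of lipid droplets, fell by 1.19 on the log2 scale. Of 40 lysosome and autophagy genes 6 fell and none rose (leave-out counts 1, 1, 3, 4 and 0), among them MAP1LC3B, with a log2 fold change of -0.85.

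Of 13 BCL2 family genes 1 rose and 2 fell (leave-out counts 0, 0, 1, 1 and 1 higher and 0, 0, 0, 0 and 1 lower). BCL2L11 (BIM), the death activator that dasatinib-sensitive cells raise when BCR::ABL1 is blocked, rose from 33.5 and 32.8 in the controls to 73.8, 70.3 and 68.3 CPM at 10, 15 and 25 nM (log2 fold change 1.09, SE 0.12, edgeR FDR 0.000814 and 0.0101 without drug naive). BBC3 (PUMA), a related activator, fell from 38.6 and 35.5 in the controls to 13.3, 12.8 and 19.2 CPM at 10, 15 and 25 nM (log2 fold change -1.30, SE 0.20, edgeR FDR 0.00237 and 0.0224 without drug naive). The survival genes BCL2L1 and MCL1 did not pass, with log2 fold changes of -0.30 and -0.19. TNFRSF10B, a death receptor for TRAIL, fell from 219 and 190.4 in the controls to 44.4, 33.2 and 42.03 CPM at 10, 15 and 25 nM (log2 fold change -2.36, SE 0.17, edgeR FDR 0.000173 and at most 0.00301 in leave-out fits). PCNA, the sliding clamp of DNA polymerase, rose from 88.3 and 98.5 in the controls to 211, 226 and 225 CPM at 10, 15 and 25 nM (log2 fold change 1.24, SE 0.10, edgeR FDR 0.000243 and at most 0.00405 in leave-out fits), one of 4 higher and 1 lower among 41 replication genes (leave-out counts 1, 2, 3, 2 and 1 higher and 0, 0, 0, 0 and 0 lower). Of 46 DNA repair genes 3 rose, PALB2, PARP1 and ATR, and 3 fell, LIG3, BRCA1 and ERCC1, with a median of -0.04 (leave-out counts 0, 0, 0, 0 and 0 higher and 2, 2, 2, 2 and 2 lower). Shares higher and lower were 9.76% and 2.44% for replication and 6.52% each for repair, against 7.92% and 10.1% of all tested genes. BRCA1 and LIG3 had log2 fold changes of -1.07 and -1.24 and passed in every leave-out fit. BRCA1 was at 229.5 and 269 in the controls and 120.3, 114 and 122 CPM at 10, 15 and 25 nM. The cell cycle lists were nearly without calls, 2 of 39 mitosis genes (TOP2A and AURKB) and 1 of 23 cyclins and inhibitors (RBL2), all lower (leave-out counts 0, 0, 2, 1 and 0 and leave-out counts 0, 0, 1, 0 and 0).

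Cancer-testis antigens, genes of the germ line that are silent in most adult tissue, rose in 7 of 21 tested members and fell in 2 (leave-out counts 2, 2, 6, 6 and 3 higher). The GAGE family, of the same class, went the other way. All 15 of its tested members lay below both controls in every line (100%, against 35.2% of all tested genes). Of these 2 fell and none rose, with a median log2 fold change of -0.66. MAGEA2 rose from 31.5 and 30.4 in the controls to 78.5, 86.4 and 75.8 CPM at 10, 15 and 25 nM (log2 fold change 1.38, SE 0.09, edgeR FDR 0.000172 and at most 0.00301 in leave-out fits) and CTAG2 from 7.36 and 5.05 in the controls to 26.7, 29.9 and 23.3 CPM at 10, 15 and 25 nM (log2 fold change 2.11, SE 0.22, edgeR FDR 0.000612 and at most 0.00482 in leave-out fits). SSX2 fell from 21.5 and 19.3 in the controls to 3.11, 1.48 and 0.859 CPM at 10, 15 and 25 nM (log2 fold change -3.46, SE 0.45, edgeR FDR 0.00133 and 0.0143 without drug naive). Members of the MAGEA, PAGE and GAGE families are near-identical in part, and their reads can be exchanged. The 15 GAGE members therefore cannot be read as separate signals. Of 18 HOX and other developmental factors 4 rose and 4 fell (leave-out counts 1, 2, 4, 3 and 3 higher and 0, 0, 1, 0 and 0 lower). TBX1, a T-box factor, rose from 22.8 and 23.7 in the controls to 75.5, 83.2 and 77.2 CPM at 10, 15 and 25 nM (log2 fold change 1.76, SE 0.09, edgeR FDR 7.76e-05 and at most 0.00168 in leave-out fits). HOXB3, HOXB9 and MEIS1 had log2 fold changes of -0.71, -0.57 and -1.64. Both S100 genes with a call fell, S100A11 from 106 and 100.2 in the controls to 38.1, 30.4 and 37.03 CPM at 10, 15 and 25 nM (log2 fold change -1.55, SE 0.12, edgeR FDR 0.000198 and at most 0.00345 in leave-out fits). Of 15 genes often used as references in PCR, 3 rose, among them BCR and TFRC, and B2M and GUSB fell (leave-out counts 1, 1, 3, 2 and 2 higher and 0, 0, 1, 0 and 0 lower). Counts of BCR can include reads of the BCR::ABL1 fusion, whose RNA the study reports as raised early in dose escalation. A change of the normal BCR gene cannot be told apart from it. GUSB, the reference of the study's own PCR, was at 107 and 102 in the controls and 75.4, 67.9 and 75.9 CPM at 10, 15 and 25 nM (log2 fold change -0.51, SE 0.08, edgeR FDR 0.00314 and 0.0265 without drug naive).

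Families were also taken from the leading letters of gene symbols, among the 64 families with at least 15 tested members. The shares higher were largest for the DHX helicases (4 of 15), the DDX helicases (8 of 35), the MRPS genes (6 of 29), the METTL methyltransferases (4 of 20), the DNAJC cochaperones (4 of 20) and the POLR subunits (6 of 31). The DDX and DHX families hold RNA helicases, and their called members include DDX10, DDX18, DDX31 and DDX47. The DHX genes were DHX9, DHX15, DHX37 and DHX38, and DDX59 was the 1 helicase of both families that fell. Subunits of RNA polymerases I and II were among the POLR calls, with POLR1B and POLR1C, and POLR2A, POLR2K and POLR2L. The DNAJC family split, with DNAJC8, DNAJC11, DNAJC14 and DNAJC25 higher and DNAJC3, DNAJC7, DNAJC10 and DNAJC12 lower, of which DNAJC3 and DNAJC10 belong to the ER. The shares lower were largest for interleukins and their receptors (6 of 18, a family with 9 members over the CPM limit in 1 group only), TTC genes (6 of 22), LINC noncoding RNAs (14 of 59), the same DNAJC family (4 of 20), RAB GTPases and their regulators (9 of 47) and USP deubiquitinases (8 of 45). Against these stand 7.92% higher and 10.1% lower of all tested genes.

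By chromosome, the share of higher genes was largest on chromosome 21, with 18 of 101 tested genes (17.8%), and on chromosome 20, with 14.7%. The share of lower genes was largest on chromosomes 17 (15.9%) and 15 (15.8%), and on chromosome 15 only 2.09% were higher. The lines differed here. On chromosome 15 the median log2 ratio to the controls was -0.31, 0.03 and -0.10 in the 10, 15 and 25 nM lines, and 124, 67 and 87 of its 335 genes lay below -0.5. Of all tested genes 18.02%, 20.8% and 19.3% lay below -0.5. On chromosome 4 the 15 nM line was the lowest, with medians of -0.05, -0.32 and -0.17 over 356 genes. The part of these chromosome shifts in the changes of single genes was not tested.

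SESN1, which restrains mTOR when amino acids are short, rose by 0.99 on the log2 scale while its relative SESN2 fell, and ULK1, which starts autophagy, fell by 0.94. In all 3 of 27 mTOR genes rose and 2 fell (leave-out counts 0, 0, 0, 0 and 0 higher and 0, 1, 2, 1 and 1 lower). Of 16 p53 targets 1 rose and 3 fell (leave-out counts 0, 0, 0, 0 and 0 higher and 1, 2, 2, 2 and 3 lower). For this list limma voom gave 3 higher and 4 lower, and the 5 libraries alone 3 higher and 3 lower. Of 18 genes of the NRF2 antioxidant response NFE2L2, the regulator itself, and NQO1 fell, with log2 fold changes of -0.86 and -0.72 (leave-out counts 0, 0, 1, 1 and 1). In fatty acid synthesis 1 of 17 rose and 3 fell (leave-out counts 0, 0, 1, 1 and 1 higher and 0, 1, 1, 1 and 0 lower). ACLY, which supplies acetyl-CoA, was among the latter (log2 fold change -0.73, SE 0.11, edgeR FDR 0.00214 and 0.0163 without drug naive). Among chromatin methylation enzymes 2 of 32 rose, DNMT3A and SUV39H2, and 3 fell, KDM6B, SUZ12 and TET1, with log2 fold changes from -1.22 for KDM6B to 0.87 for DNMT3A (leave-out counts 0, 0, 2, 0 and 1 higher and 0, 1, 1, 1 and 1 lower). The proteasome, which all cells need, had 3 of 38 members higher and none lower (leave-out counts 0, 1, 1, 1 and 0). Its share higher, 7.89%, was near the 7.92% of all tested genes. The replication-dependent histones had 1 of 19 lower, lost in each leave-out fit. Both called genes of 4 ephrins and their receptors, EFNB1 and EPHB6, rose (leave-out counts 0, 0, 1, 0 and 0), and SMO was the 1 call among 5 hedgehog genes, higher (leave-out counts 0, 1, 1, 1 and 1). EREG, a ligand of the EGF receptor and the only tested gene of its chemokine and ligand cluster, fell from 12.3 and 18.2 in the controls to 0.476, 0.398 and 0.606 CPM at 10, 15 and 25 nM (log2 fold change -4.96, SE 0.37, edgeR FDR 0.000198 and at most 0.00352 in leave-out fits). Of the 2 groups, EREG met the CPM limit only in controls. Of 9 tested megakaryocyte and platelet genes CD9 and THBS1 rose, with log2 fold changes of 3.50 and 4.60, and ITGA2B and MEIS1 fell (leave-out counts 0, 0, 1, 0 and 0 higher and 0, 0, 0, 1 and 0 lower). Of the 9, 4 met the CPM limit in 1 group only. Of 4 tested granulocyte and monocyte genes CD68 fell (log2 fold change -1.65, edgeR FDR 0.000845, leave-out counts 0, 0, 1, 1 and 1). Of 6 stem and progenitor genes LMO2 rose and GATA2, MEIS1 and ALDH1A1 fell (leave-out counts 0, 0, 1, 1 and 1 higher and 0, 0, 0, 0 and 0 lower). Over the longer marker lists VIM was the 1 fibroblast and endothelial gene with a call, and no lymphocyte gene passed. None of the 3 tested metallothioneins passed. Limma voom called 1 receptor tyrosine kinase higher and 2 lower, 0 hedgehog and 0 megakaryocyte and platelet genes higher, 1 ephrin list gene and 2 matrix genes. With DESeq2 size factors, library totals, a 1 CPM filter or the 5 libraries alone 1 NRF2 gene fell.

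The largest called changes over all tested genes, among those with more than 3 counts in at least 1 library of each group, were led by PKD2, VCAN, RBMS1 and GPR126 in the upward direction. The 12 largest falls met the CPM limit in controls and not in early stage lines, and the 12 largest rises the reverse, all but PPM1K. VCAN, a matrix proteoglycan, went from 0.398 and 0.292 in the controls to 33.7, 107 and 78.4 CPM at 10, 15 and 25 nM (log2 fold change 7.72, SE 1.37, edgeR FDR 0.00418 and 0.0402 without drug naive). RBMS1, an RNA-binding protein, was more even, at 0.149 and 0.251 in the controls and 35.5, 40.9 and 34.1 CPM at 10, 15 and 25 nM (log2 fold change 7.46, SE 0.58, edgeR FDR 0.000222 and 0.00540 without drug naive). GPR126, an adhesion receptor now named ADGRG6, was at 0.199 and 0.376 in the controls and 53.3, 20.6 and 67.2 CPM at 10, 15 and 25 nM, with the 15 nM line the lowest of the 3 (log2 fold change 7.29, SE 0.80, edgeR FDR 0.000755 and 0.0124 without drug naive). Others were PLCL2, NR2F1, PAGE2 and PAGE2B, with log2 fold changes of 6.48, 6.19, 6.03 and 5.87. PKD2 had the widest range over the lines of any higher gene, 2.35 on the log2 scale, with log2 ratios of 6.03, 8.17 and 8.38 at 10, 15 and 25 nM, and PPM1K followed with 2.24. PKD2 and PPM1K lie close together on GRCh37 chromosome 4, from 88928787 to 88998929 and from 89178772 to 89205921. Whether PKD2 and PPM1K rose separately or as part of a shared stretch was not tested.

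The largest falls were those of FAM49A, SPRR2D, NEBL and C15orf26. FAM49A (now CYRIA), an inhibitor of RAC1 signaling to actin, had 524 and 433 counts in the controls and 1, 4 and 2 counts at 10, 15 and 25 nM (log2 fold change -7.80, SE 0.50, edgeR FDR 0.000141 and at most 0.00314 in leave-out fits). SPRR2D, a cornified envelope protein of skin, had 572 and 371 counts in the controls, none at 10 and 15 nM and 7 at 25 nM (log2 fold change -7.75, SE 1.04, edgeR FDR 0.00155 and 0.0169 without drug naive). NEBL, an actin-binding protein of the nebulin family, fell from 126 and 95.8 in the controls to 0.220, 1.09 and 1.21 CPM at 10, 15 and 25 nM (log2 fold change -7.08, SE 0.76, edgeR FDR 0.000693 and 0.00727 without drug naive). CYFIP2, part of the WAVE complex that starts actin branching, differed between the controls, at 71.5 and 20.6 in the controls and 0.769, 0.326 and 0.101 CPM at 10, 15 and 25 nM (log2 fold change -6.76, SE 0.73, edgeR FDR 0.000714 and 0.00731 without drug naive). TMEM154, ZNF618 and S100P had log2 fold changes of -6.30, -6.15 and -5.69. The noncoding RNAs TLR8-AS1 and F11-AS1 were also in this group, and as it is not stated whether the counting used strand, their reads cannot be told apart from those of the genes they overlap. Fitted changes of such low genes depend on the prior count of the model.

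**Figure D4:**
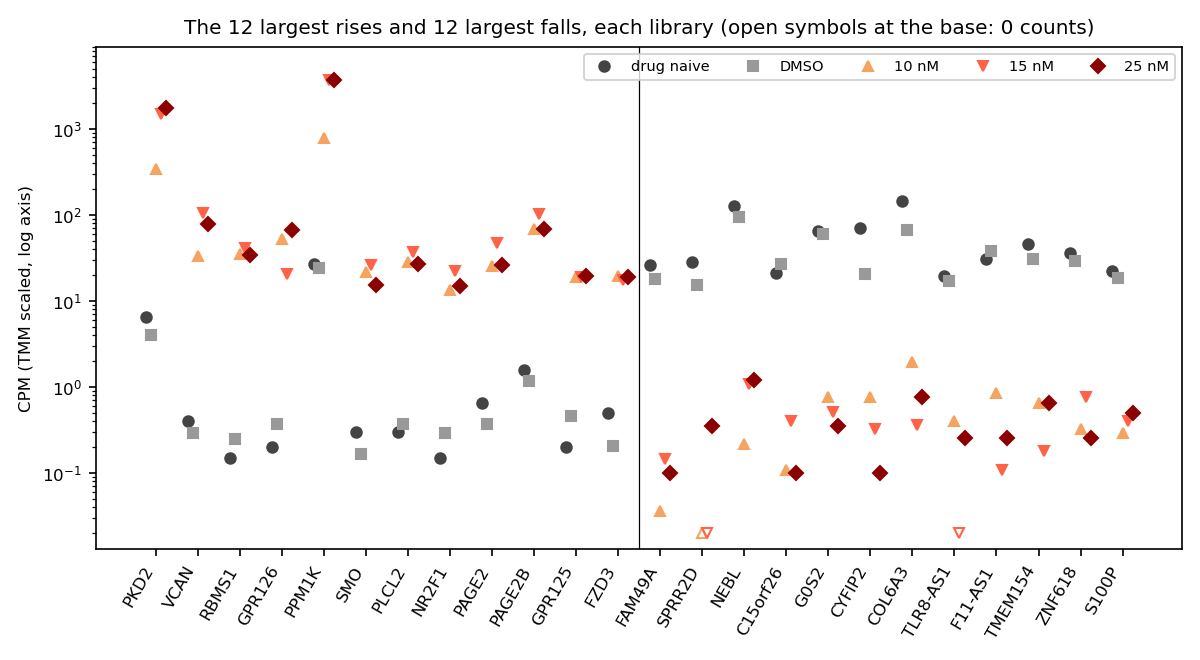
CPM on a log axis of the 12 largest rises and the 12 largest falls among called genes with more than 3 counts in at least 1 library of each group, 1 symbol per library and open symbols at the base for 0 counts. Every gene but PPM1K met the 10 CPM limit in 1 of the groups only. Among the rises the lines spread most for PKD2 and PPM1K, in both of which the 10 nM line is the lowest.

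The spread between the 3 lines differed by list. For called members the median range over the lines was 1.45 on the log2 scale for the 2 Notch genes, 1.02 for 4 megakaryocyte and platelet genes, 0.77 for 5 semaphorin, plexin, netrin and slit genes and 0.70 for 4 interferon response genes. Members past the threshold had a median range over the lines of 0.22 on the log2 scale over all called genes and 0.28 in the ATF4 list, where SLC7A11 was widest with 1.16. Only 17 called genes had lines more than 2 apart, 2 higher and 15 lower, and the widest was ARHGDIB, a regulator of small GTPases, at 28.3 and 39.9 in the controls and 1.06, 0.181 and 1.62 CPM at 10, 15 and 25 nM. COTL1, which binds actin, was among the 17, at 200.1 and 226 in the controls and 34.3, 8.43 and 24.4 CPM at 10, 15 and 25 nM. In ARHGDIB and COTL1 the 15 nM line was the lowest.

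**Figure D5:**
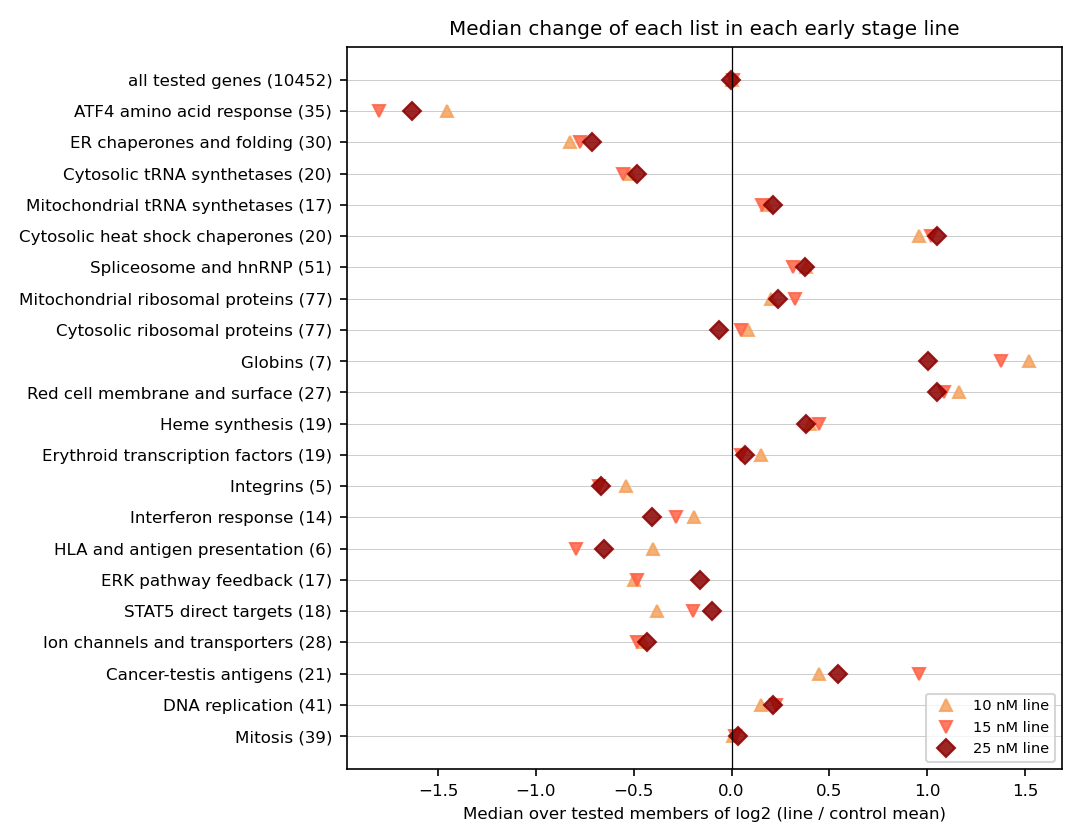
Median log2 ratio to the control mean over the tested members of selected lists, 1 symbol for each of the 10, 15 and 25 nM lines, with a line at 0. The 3 lines lie on the same side of 0 for the stress, chaperone and globin lists, and of the lists shown the ATF4 list is the lowest in each line.

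Calls were lost most often when a control was left out. Without the drug naive library 208 genes passed, without DMSO 529, without the 10 nM line 1111, without 15 nM 889 and without 25 nM 535, and 192 of the 1881 genes, 60 higher and 132 lower, passed in all 5 fits. Every one of the 1881 kept its direction and an FDR under 0.05 in each of these fits. Members of the ATF4 list made up 12 of the 132 lower genes that passed throughout, the ER list 6 and the tRNA synthetases 6, and the heat shock chaperones made up 7 of the 60 higher genes.

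Levels in the 50 and 200 nM lines, which are compared with the same controls, are given beside these values. ASNS was at 261 and 301 CPM, HSPA5 at 559.5 and 530.2 CPM and HSPA8 at 2067 and 1936 CPM, on the early stage side of the controls. HBZ was at 669.9 CPM at 50 nM and 60.2 CPM at 200 nM, the latter within reach of the controls. ETV4 was at 55.6 and 88.2 CPM, GATA2 at 139.6 and 212 CPM and ITGA5 at 211 and 297 CPM. The test of late against early stage lines gave edgeR FDRs of 0.0184, 0.0704, 0.110, 0.0856, 0.0167, 0.0167 and 0.0167 for these genes in the same order, none under 0.005.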

How the data were processed

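RNA was sequenced from 7 K562 lines with a directional kit after depletion of ribosomal and noncoding RNA, 1 library per line. Reads were aligned to hg19 with STAR per the study's methods, and FastQC, featureCounts and edgeR are named in the submitters' processing notes without versions. The values used are the raw read counts per gene that the authors deposited; the strand setting of the counting is not given in the sources used here. Gene lengths and the deposited columns of the authors' own comparisons (fold changes, p-values and FDR) were not used.

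Of 25702 gene identifiers, 10452 held at least 10 CPM in at least 2 libraries, and symbols were taken from the deposited table and RefSeq. Tests used edgeR 4.0.16 with limma 3.58.1 in R 4.3.3, with TMM scaling, a quasi-likelihood fit of control, early and late groups (common dispersion 0.0260) and an FDR of 0.005. A log2 ratio of 1 line used a prior count of 2, and 3 counts were taken as the floor. On simulated data with these group sizes 200 of 200 genes changed by a log2 of 2 were found among 10452, and 1 unchanged gene was called. Every simulated gene had the common dispersion and the simulated libraries were independent, unlike the lines here. The simulation therefore does not give the rate of missed or false calls in these data.

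The members and the 65 gene lists (1819 symbols matched, 1 unmatched) were chosen with earlier results of these data known. Genes were named as the called list members of smallest p (up to 8), defining members, and the 12 largest rises and falls. Members of symbol families, genes that differ between controls or lines, and the heat shock and ER stress motifs with the promoters shown were chosen after values were seen. Each library was left out in turn, and other filters, scalings, thresholds, DESeq2 1.42.0 and limma voom were tried. Some genes of these lists are not reported here.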

Additional observations from a re-analysis of the deposited data

How the results depend on the processing

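Counts are given with their share of the genes tested. At an FDR of 0.05, 4865 genes passed (46.5%), 2357 higher (22.6%), 2508 lower (23.995%) and 4864 without overlap (46.5%). With a log2 fold change beyond 1 as well, 949 passed (9.08%), 3.70% higher and 5.38% lower. DESeq2 called 3548 (33.96%), 1712 higher (16.4%) and 1836 lower (17.6%), and testing all genes with counts called 1265 of 22776 higher (5.55%). In leave-out fits from 208 to 1111 genes passed (1.99% to 10.6%), from 66 to 462 higher (0.631% to 4.42%) and from 142 to 649 lower (1.36% to 6.21%), none of them overlapping. Fits with fewer libraries have fewer degrees of freedom, and without a control the lone control is assumed to vary like the other groups. Limma voom, DESeq2 size factors, library totals, a 1 CPM filter and the 5 libraries alone gave counts over all genes within 1.5 times the values reported, but of 130 counts of list members 15, 1, 11, 17 and 18 moved by more. No called gene changed direction. Among named genes without a call, 8 changed direction in a leave-out fit, with log2 fold changes over these fits from -0.72 to 0.49 for BNIP3L, -0.63 to 0.063 for FTH1 and -0.065 to 0.60 for VARS (turned without drug naive), from -0.76 to 0.42 for EGR1 and -0.12 to 0.028 for KARS (without DMSO), from -0.53 to 0.59 for LYZ (without DMSO or 10 nM), from -0.20 to 0.00222 for PYCR1 (without 10 nM) and from -0.083 to 0.90 for HBE1 (without 15 nM). No paired analysis was possible because the libraries carry no shared replicate numbers. Depth limits genes near the floor of 3 counts, where early stage or control libraries held 0 to a few counts and fold sizes depend on the prior count.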
